A study of Mus musculus with 2 samples.

Results

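The Slc25 genes encode the mitochondrial carrier family, the membrane proteins that exchange nucleotides, phosphate, organic acids, amino acids, cofactors and metals across the inner mitochondrial membrane. The family was taken as every gene whose symbol is Slc25a followed by a number. It held 47 members among the 55536 genes of the deposited tables, of which 22015 were protein-coding genes of the nuclear chromosomes. The tissue was the gastrocnemius, a calf muscle built mostly of fast fibres, taken from female B6CASTF1/J mice, the F1 cross of C57BL/6J and CAST/EiJ, at the age of 14 days. Total RNA was sequenced in 2 libraries, which are replicates 1 and 2 of a single group, each from 300 ng of RNA with spike-in RNAs added. No treatments, ages or tissues are therefore set against each other. The labels name 3 females for each library but a single female for the tissue of replicate 2, so it is not clear whether animals were pooled.

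In muscle, ATP made in the matrix leaves through the ADP/ATP carriers, and phosphate returns through its own carrier. The aspartate-glutamate and oxoglutarate-malate carriers form the membrane part of the malate-aspartate shuttle, which brings reducing equivalents from glycolysis into mitochondria. The carnitine-acylcarnitine carrier admits fatty acids for oxidation. Several carriers exist in forms with different tissue use. Slc25a4 is the ADP/ATP carrier of heart and muscle, Slc25a5 that of dividing and many other cells, and Slc25a31 that of male germ cells. Slc25a12 is the aspartate-glutamate carrier of muscle and brain, and Slc25a13 that of liver.

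The gene tables held 35592003 gene counts in replicate 1 and 42105856 in replicate 2, of which the members took 0.379% and 0.324%. Levels are in TPM, a length-corrected abundance with the same total in every library, and are given for replicate 1 and then replicate 2, or as mean ± SD (n = 2). Whether the spread between the libraries is biological or technical cannot be told apart, since the labels call them biological replicates but list the same donor for both. Every interval and p-value compares these 2 libraries and holds the counting error alone. The libraries were alike in the markers of muscle fibres in general, Acta1, Ckm, Myh4, Tnnt3 and Actn3, whose summed level was 70020 and 72968 TPM. The 5 markers of endothelial cells summed to 175 and 170 TPM and the 5 of macrophages to 38.2 and 44.1 TPM. Some other cell types differed more. The 5 markers of slow fibres summed to 1050 and 1805 TPM, the 5 of fibro-adipogenic cells to 2117 and 3383 TPM, the 5 of mural cells to 273 and 471 TPM, the 5 of Schwann cells to 194 and 535 TPM, and the 7 of red blood cells to 2949 and 1495 TPM. The mural list was uneven within itself, with 2 markers above 0 and 3 below in the log2 ratio of counts used further on. Acta2, at 119 and 306 TPM, held most of the mural gap. Most of the fibro-adipogenic gap lay in Col1a1, at 1128 and 1958 TPM, and Col3a1, at 759 and 1135 TPM. For Pdgfra, at 18.3 and 20.2 TPM, the interval of that log2 ratio held 0, while the intervals of the other 4 lay below 0. The markers of white adipocytes summed to 176 and 140 TPM, of brown adipocytes to 16.3 and 13.5 TPM, of satellite cells to 13.9 and 16.6 TPM, of neurons to 1.72 and 3.09 TPM and of liver to 1.68 and 0.26 TPM. Fabp4, at 158.5 and 122.2 TPM, held most of the white adipocyte sum. Ppargc1a, at 13.98 and 10.89 TPM, held most of the brown one. Both lists were mixed: intervals of that log2 ratio lay above 0 for 2 white markers and below for 1, and for 1 brown marker on each side. In bulk tissue, fewer cells of a type and less RNA per cell cannot be told apart. The part of these markers in the member ratios was not tested.

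The ADP/ATP carriers Slc25a4 (ENSMUSG00000031633.4, chr8:46206797-46211284 on mm10, minus strand) and Slc25a5 (ENSMUSG00000016319.3, chrX:36795651-36798807, plus strand) are close relatives. Their coding sequences are both 894 bases long without the stop codon and are identical at 77.4% of positions, with no identical run longer than 20 bases. The stretch below covers 60 bases of the coding exon that holds the run of 3 arginine and 3 methionine codons by which ADP/ATP carriers are recognised. It shows how far reads of the carriers can be told apart, and capitals mark the 11 bases that differ. The Slc25a4 bases lie at chr8:46208399-46208458 (minus strand) and the Slc25a5 bases at chrX:36797816-36797875 (plus strand), from the GENCODE M21 transcripts.
Slc25a4: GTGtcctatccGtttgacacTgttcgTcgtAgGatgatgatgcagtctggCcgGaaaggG
Slc25a5: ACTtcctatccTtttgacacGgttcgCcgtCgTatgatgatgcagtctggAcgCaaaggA

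The run itself occupies bases 25 to 42 and differs at 3 of them. The deposited tables left little doubt in dividing reads between these genes. The posterior standard deviation of the count, which measures reads that fit several genes, was 0 counts for Slc25a4 in both libraries and 0.73 and 0.86 counts for Slc25a5.

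Slc25a3 (ENSMUSG00000061904.12, chr10:91116574-91124059, minus strand), the phosphate carrier, has alternative exons 3A and 3B, of which the muscle form carries 3A. They are shown because they define the forms compared below, although the annotated transcripts differ elsewhere too, with 1341 bases in all for the 3A transcript and 1612 and 1483 bases for the 3B transcripts. Capitals mark bases that are identical when the exons are aligned. Exon 3A lies at chr10:91122207-91122331 and exon 3B at chr10:91121922-91122043, both coding and on the minus strand.
exon 3A: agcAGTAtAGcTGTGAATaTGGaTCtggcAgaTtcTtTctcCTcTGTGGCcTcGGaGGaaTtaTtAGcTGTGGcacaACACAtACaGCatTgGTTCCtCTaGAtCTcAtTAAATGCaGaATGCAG
exon 3B: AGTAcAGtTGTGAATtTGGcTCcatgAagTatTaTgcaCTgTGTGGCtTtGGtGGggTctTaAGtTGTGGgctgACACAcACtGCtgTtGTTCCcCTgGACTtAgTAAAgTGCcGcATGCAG

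The exons are 125 and 122 bases long and are identical at 80 of 126 aligned positions, or 63.5%.

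The family as a whole summed to 2691 and 2386 TPM, or 2539 ± 216 TPM (SD, n = 2). This was 0.273% and 0.242% of the TPM of all genes. Of the 47 members, 36 reached 1 TPM in both libraries, a share of 76.6%, beside 49.98% of nuclear protein-coding genes. Slc25a45 reached it in replicate 2 only, at 0.90 and 1.12 TPM, and 10 members stayed under it in both libraries. The levels were very uneven. The 4 highest members held 85.6% and 85.0% of the family's TPM, and these 4 alone exceeded 100 TPM in both libraries, while 13 members exceeded 10 TPM in both.

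**Figure D1:**
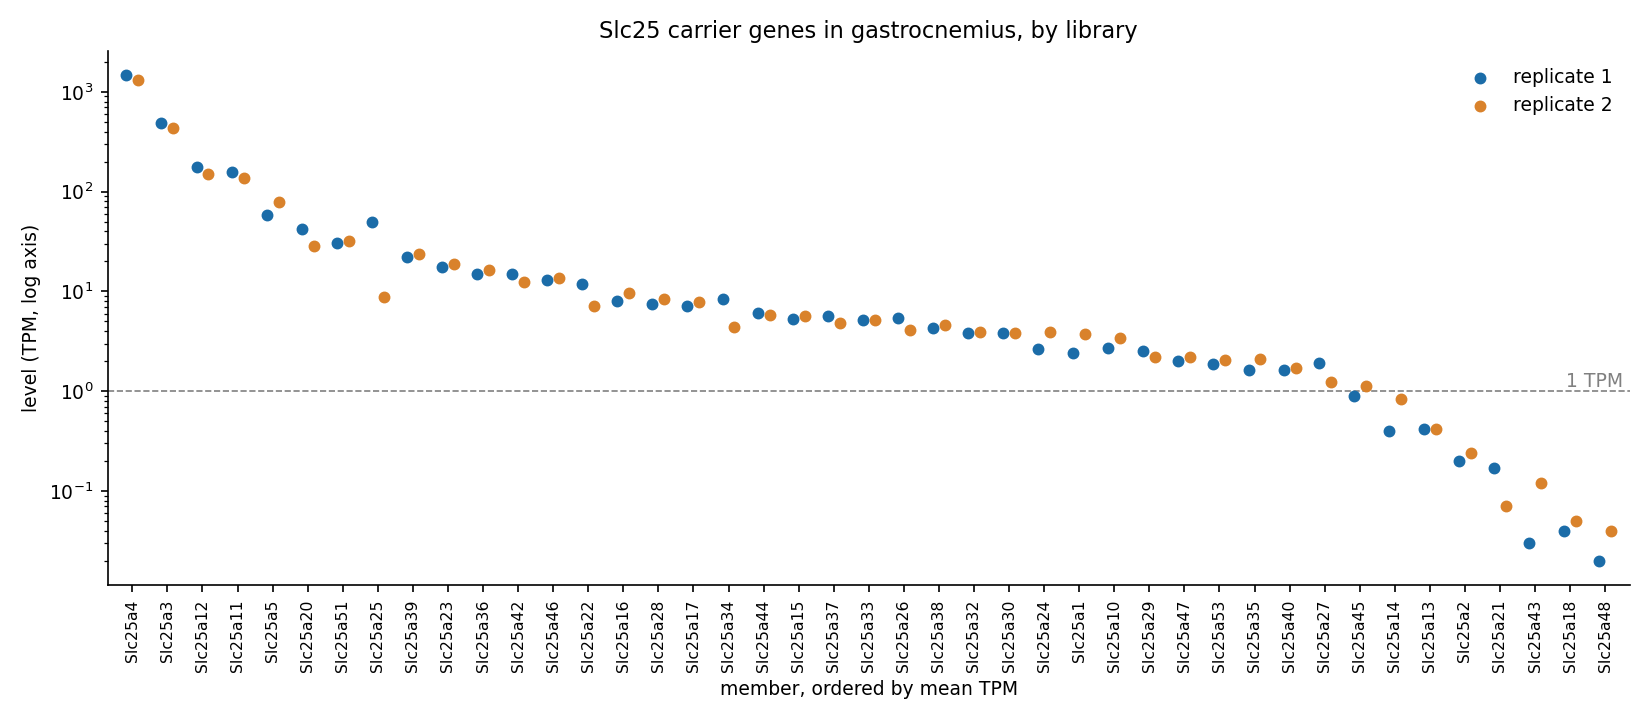
Level of each member in TPM (log axis) in replicate 1 (blue, left) and replicate 2 (orange, right), ordered by mean level. 43 members with a read in both libraries are drawn, and the dashed line marks 1 TPM. Slc25a4 stands above all others at 1477 and 1310 TPM, and Slc25a25 shows the widest gap between the libraries among members above 1 TPM.

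Slc25a4 was the most abundant carrier transcript, at 1477 and 1310 TPM. It made up 54.9 ± 0.02% of the family (SD, n = 2) and ranked 26 and 30 among nuclear protein-coding genes by level. Slc25a5 was measured at 58.4 and 79.5 TPM. Within each library Slc25a4 was therefore 25.3-fold and 16.5-fold more abundant than Slc25a5, a log2 ratio of 4.35 ± 0.44 (SD, n = 2). In each library the deposited TPM intervals of the 2 carriers lay apart, which is the criterion used here for a difference larger than the measurement error within a library. These intervals surround another deposited estimate, the posterior mean TPM, and need not hold the TPM given here. For Slc25a4 they were 1432 to 1454 TPM in replicate 1 and 1274 to 1293 TPM in replicate 2. The carriers moved in opposite directions between the libraries. The log2 ratio of scaled counts, replicate 1 over replicate 2, was 0.34 for Slc25a4 (95% interval 0.32 to 0.35) and -0.29 for Slc25a5 (-0.37 to -0.21), neither of them 2-fold. Slc25a31, the germ cell form, had 0 counts in both libraries, where 3 counts would have been 0.0526 and 0.0455 TPM. All 5 germ cell markers of testis, Slc25a31 among them, were at 0 counts too. Slc25a4 was thus at least 28093-fold and 28803-fold more abundant than Slc25a31. The single pseudogene listed under the Slc25a5 name, Slc25a5-ps, held 0.98 and 0 counts.

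Slc25a3 was the next most abundant member at 493 and 433 TPM, or 18.2 ± 0.12% of the family (SD, n = 2). Its transcripts followed the muscle pattern described above. Those with exon 3A made up 90.8% and 90.7% of its TPM in the transcript tables, and those with exon 3B 8.49% and 8.97%. The direct quantification, the transcript table that the authors made from the reads without a prior alignment, gave exon 3A 76.7% and 76.6% and exon 3B 20.2% and 21.4%. The libraries differed from each other by far less than the quantifications did.

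The malate-aspartate shuttle supplied the next members. Slc25a12 (ENSMUSG00000027010.16, chr2:71271063-71367749, minus strand) was measured at 179 and 151 TPM, and Slc25a11, the oxoglutarate-malate carrier, at 156 and 136 TPM. Slc25a13, the liver form of the aspartate-glutamate carrier, was at 0.42 TPM in both libraries, from 27 and 32 counts. Slc25a12 was 425-fold and 359-fold more abundant, a log2 ratio of 8.61 ± 0.17 (SD, n = 2), with intervals apart in both libraries. Their coding sequences are 2031 and 2028 bases long and are identical at 70.8% of aligned positions, with no identical run over 21 bases. No read was divided between them and another gene, as the posterior standard deviation was 0 counts for both. The glutamate carriers showed the same kind of one-sided use. Slc25a22 was measured at 11.9 and 7.19 TPM, and Slc25a18 at 0.04 and 0.05 TPM from 2 and 3 counts.

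Most Slc25a12 signal was not assigned to its complete coding transcript. The transcript Slc25a12-207, annotated as a target of nonsense-mediated decay, took 74.4% and 74.9% of the gene's TPM, and the 18-exon coding transcript Slc25a12-206 took 11.5% and 10.4%. The direct quantification gave 52.3% and 54.9% to Slc25a12-207 and 12.6% and 12.7% to Slc25a12-206. Slc25a12-207 lacks exon 4, which at 116 bases is not a multiple of 3. The last exon has 664 bases in Slc25a12-207 and 4291 bases in Slc25a12-206. The full lengths are 2392 and 6351 bases, a gap that exon 4 and the last exon do not account for in full. Whether the split was read from exon 4, the shorter last exon or other differing bases cannot be told apart here. Exon 4 (chr2:71333605-71333720, minus strand, coding in Slc25a12-206) is printed because Slc25a12-206 holds it and Slc25a12-207 does not.
exon 4: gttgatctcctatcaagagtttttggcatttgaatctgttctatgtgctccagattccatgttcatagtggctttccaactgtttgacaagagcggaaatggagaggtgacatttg

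Among the 36 members above 1 TPM, 34 shared their leading transcript between the libraries, and 32 did so in the direct quantification. For 30 members the leading transcript was the same in both libraries and both quantifications. For 33 of the 36 members the leading transcript was protein-coding, and the exceptions besides Slc25a12 were Slc25a47 and Slc25a53.

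The carnitine-acylcarnitine carrier Slc25a20 was measured at 42.1 and 28.7 TPM, and Slc25a29, a carrier of basic amino acids that resembles it, at 2.54 and 2.19 TPM. Slc25a20 was 16.6-fold and 13.1-fold more abundant. Other amino acid carriers were low. The ornithine carrier Slc25a15 was at 5.26 and 5.67 TPM, the branched-chain amino acid carrier Slc25a44 at 6.01 and 5.81 TPM, and Slc25a38, a glycine carrier of haem synthesis, at 4.28 and 4.63 TPM. A second ornithine carrier, Slc25a2, had 7 and 10 counts. The remaining carboxylate carriers were near or under 5 TPM. Slc25a1, the citrate carrier, was at 2.44 and 3.73 TPM, Slc25a10, the dicarboxylate carrier, at 2.71 and 3.39 TPM, and Slc25a21 at 0.17 and 0.07 TPM. Slc25a11 was 57.5-fold and 40.0-fold more abundant than Slc25a10.

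The carriers of nucleotides and cofactors were led by Slc25a51, the NAD+ carrier, at 30.5 and 32.0 TPM. Slc25a36, a pyrimidine nucleotide carrier, was at 15.03 and 16.58 TPM, above its relative Slc25a33 at 5.13 TPM in both libraries. Slc25a42, the coenzyme A carrier, was at 14.98 and 12.43 TPM, and Slc25a16, also linked to coenzyme A, at 8.11 and 9.67 TPM. Also measured were Slc25a17, a peroxisomal carrier, at 7.11 and 7.76 TPM, Slc25a26, which imports S-adenosylmethionine, at 5.43 and 4.15 TPM, and Slc25a32, linked to folate and FAD, at 3.80 and 3.93 TPM. None of the carriers of nucleotides and cofactors named here was called between the libraries.

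The carriers of iron and glutathione were all detected. Slc25a39, a glutathione carrier, was measured at 22.2 and 23.9 TPM and its relative Slc25a40 at 1.62 and 1.70 TPM, 13.7-fold and 14.0-fold less. Slc25a40 was the 1 member whose posterior standard deviation exceeded 1% of its count. Of the iron carriers, Slc25a37 (called mitoferrin 1 and needed in red cell precursors) was at 5.62 and 4.82 TPM and Slc25a28 (called mitoferrin 2, of most tissues) at 7.53 and 8.31 TPM. Slc25a37 was lower by a log2 ratio of -0.42 and -0.79, with intervals apart in both libraries. By counts not divided by length the order was the opposite, with log2 ratios of 1.13 and 0.93. Such counts favour the longer gene, so they do not bear on the order. The effective lengths were 4005 and 4257 bases for Slc25a37 and 1368.5 and 1291.3 bases for Slc25a28.

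The uncoupling protein relatives were low: Slc25a30 at 3.84 and 3.81 TPM, Slc25a27 at 1.93 and 1.24 TPM, and Slc25a14 at 0.40 and 0.83 TPM. Slc25a46, an outer membrane protein that shapes mitochondria, was at 13.1 and 13.8 TPM. Of the 8 members given no role here, 4 reached 1 TPM in both libraries, namely Slc25a34 at 8.35 and 4.38 TPM, Slc25a47 at 2.01 and 2.20 TPM, Slc25a53 at 1.86 and 2.04 TPM and Slc25a35 at 1.63 and 2.08 TPM. Slc25a54 had 0 counts in both libraries, Slc25a41, an ATP-Mg carrier, had 0 and 1, and Slc25a43 and Slc25a48 had 1 to 4 counts in each.

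Across 13 pairs of carriers compared within each library, the deposited intervals were apart in both libraries for 12. The first-named gene was higher in both libraries in 10 pairs, the other gene in 1, and the order differed between the libraries in 2. Slc25a42 over Slc25a16 had log2 ratios of 0.89 and 0.36 in the gene tables but 0.53 and -0.21 in the direct quantification. The order of Slc25a42 and Slc25a16 is therefore not settled in replicate 2.

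**Figure D2:**
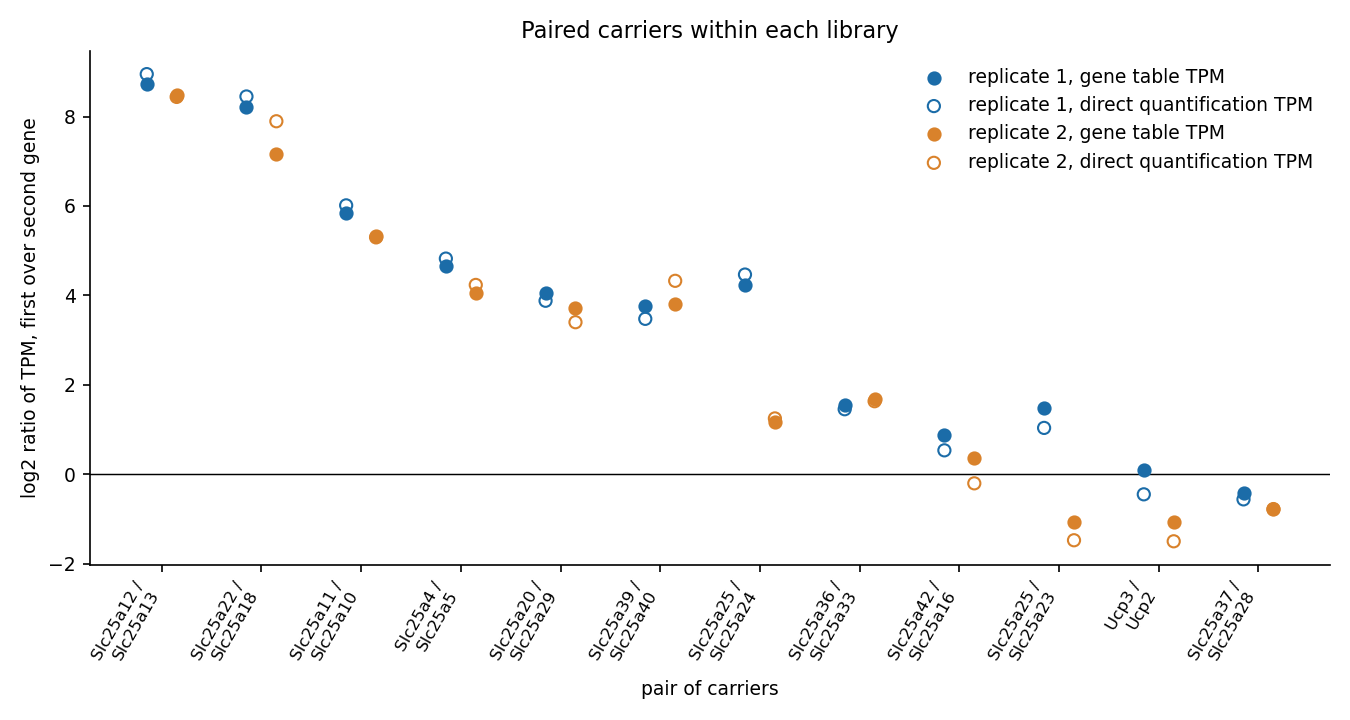
Log2 ratio of TPM, first over second gene, for 12 of the 13 pairs (Slc25a4 over Slc25a31 is a lower bound and is not drawn). Filled points are from the gene tables and open points from the direct quantification, replicate 1 in blue on the left and replicate 2 in orange on the right. Slc25a12 over Slc25a13 is highest at 8.73 and 8.49, and the points of Slc25a25 over Slc25a23 lie on opposite sides of 0 at 1.48 and -1.08.

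The libraries were then compared gene by gene. Counts scaled by TMM entered a two-sided exact binomial test for each of the 15734 genes with a summed count of at least 20, and a gene was called at a Benjamini-Hochberg adjusted p under 0.05 and at least 2-fold. Of the members, 39 could be tested. Of these, 36 were at 1 TPM or more in both libraries, beside 11903 of the 15734 genes tested. A test on counting error alone passes more readily at high counts, so the shares over all genes are not a like background. Slc25a25 and Slc25a34 were called higher in replicate 1, and 0 members were called lower. Over all genes tested, 3.4% were called, 1.62% higher in replicate 1 and 1.78% lower. A count of 2 among 39 members is too small beside that background to be a result about the family. At an adjusted p under 0.05 regardless of fold, 19 of the 39 members passed, beside 31.5% of all genes tested.

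Slc25a25 (ENSMUSG00000026819.15, chr2:32414487-32451445, minus strand) was the widest difference in the family. It encodes a calcium-regulated carrier that exchanges ATP-Mg for phosphate and so sets the adenine nucleotide content of the matrix. It was measured at 49.5 and 8.84 TPM, from 3821 and 780 counts. The log2 ratio of scaled counts was 2.66 (95% interval 2.55 to 2.78), 6.33-fold, and 99.7% of tested genes had a smaller absolute ratio. The other calcium-regulated ATP-Mg carriers did not share this. Slc25a23 was at 17.7 and 18.6 TPM, with a log2 ratio of -0.03 (-0.18 to 0.11), and Slc25a24 at 2.62 and 3.91 TPM, with a log2 ratio of -0.50 (-0.74 to -0.26). Slc25a25 was accordingly 2.79-fold higher than Slc25a23 in replicate 1 and 2.11-fold lower in replicate 2, with intervals apart in both libraries.

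Slc25a25 transcripts start at 3 main first exons, called distal, middle and proximal here by their distance from the gene's 3′ end. Transcripts from the distal first exon held 2528 and 462 counts, those from the proximal one 1144 and 187, and those from the middle one 77.5 and 102. In scaled counts the distal transcripts were 7.06-fold and the proximal ones 7.88-fold higher in replicate 1, while the middle ones had a ratio of 0.98. The middle counts all came from Slc25a25-202, whose posterior standard deviations were 33.55 and 24.3 counts. The direct quantification also put the distal exon first, at 3574 and 620 counts, and the middle one at 143 and 127 counts. The middle counts were thus higher in replicate 1 there and in replicate 2 in the transcript tables, so the middle ratio is not settled. The direct quantification assigned less than 1 count to the proximal exon in each library, so the share of the proximal start is not settled by these tables. The wide ratio was common to the distal transcripts of both quantifications.

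**Figure D3:**
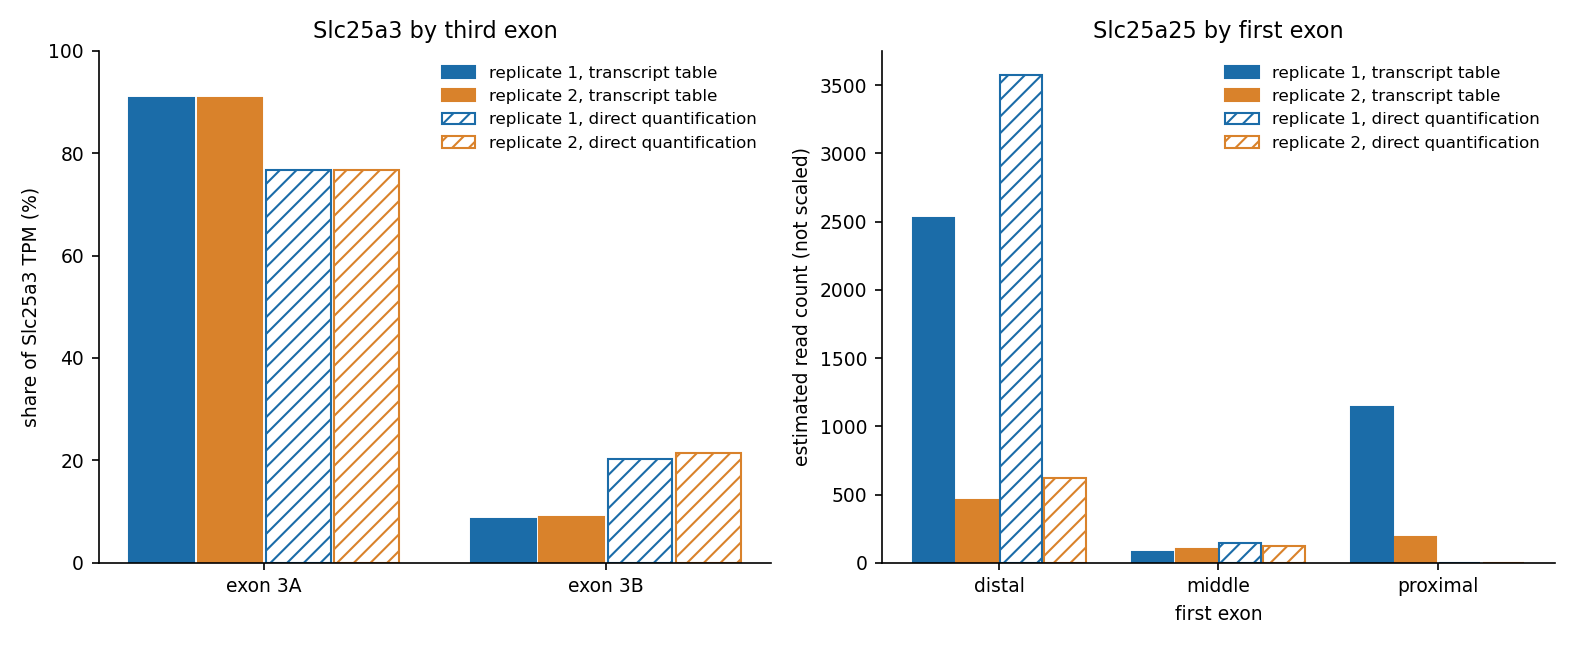
Left, share of Slc25a3 TPM in transcripts with exon 3A or exon 3B (percent). Right, estimated read counts of Slc25a25 transcripts by first exon, not scaled for depth. Blue is replicate 1 and orange replicate 2, with filled bars for the transcript tables and hatched bars for the direct quantification. Exon 3A holds 90.8% and 90.7% in the transcript tables and 76.7% and 76.6% in the direct quantification, and the distal counts of Slc25a25 are far higher in replicate 1.

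The 250 bases before the distal and proximal starts are printed from the RefSeq promoter table (GRCm38.p6, minus strand), since the distal start carried the difference in both quantifications and the proximal one in the transcript tables. Capitals mark TGACGTCA, the cAMP response element, a motif chosen after the windows had been read.
distal promoter, chr2:32451471-32451720: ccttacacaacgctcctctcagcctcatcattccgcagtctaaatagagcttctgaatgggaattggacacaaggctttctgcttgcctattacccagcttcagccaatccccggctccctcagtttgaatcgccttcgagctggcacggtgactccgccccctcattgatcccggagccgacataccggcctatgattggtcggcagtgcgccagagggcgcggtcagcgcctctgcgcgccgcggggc
proximal promoter, chr2:32424067-32424316: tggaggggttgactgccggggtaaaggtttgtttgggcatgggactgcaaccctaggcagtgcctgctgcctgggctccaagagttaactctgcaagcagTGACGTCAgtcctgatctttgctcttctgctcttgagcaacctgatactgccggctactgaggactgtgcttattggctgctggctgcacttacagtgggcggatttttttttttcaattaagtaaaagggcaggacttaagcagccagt

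TGACGTCA, which reads the same on both strands, stood in the proximal window and not in the distal one. It occurred in 2 of the 46 windows that RefSeq gives for 36 members, those of Slc25a25 and Slc25a36, and in 1.79% of all 32851 windows of 300 bases. The other motifs searched on both strands were TCAAGGTCA, bound by oestrogen-related receptors, in 0.423% of all windows, and GCGCATGCG, bound by nuclear respiratory factor 1, in 1.75%. Both letter strings were in 0 member windows. These matches describe the letters only.

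Slc25a34 (ENSMUSG00000040740.7, chr4:141618824-141623821, minus strand) was measured at 8.35 and 4.38 TPM, from 604 and 366 counts. Its log2 ratio of scaled counts was 1.09 (95% interval 0.90 to 1.28), 2.13-fold, with an adjusted p of 6.06e-30 in the exact binomial test. It lies just past the 2-fold limit, and with libraries scaled by total count or by spike-ins its log2 ratio was 0.96 or 0.87 and it was no longer called. Under those scalings Slc25a14, described below, was called lower in its place. Slc25a22, the glutamate carrier, fell just short of the limit with a log2 ratio of 0.99 (0.81 to 1.17).

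Most other differences among members were small. The 95% interval of the log2 ratio lay above 0 for 17 members, higher in replicate 1, and below 0 for 5, lower in replicate 1. Over all genes tested these shares were 19.2% and 19.1%, or 38.3% in either direction. That background holds a larger share of genes under 1 TPM than the members do. The split depends on the scaling. With spike-in counts it was 10 above and 13 below among members, and 6.64% and 47.7% over all genes. With total counts it was 12 above and 7 below among members, and 10.1% and 34.7% over all genes. The median log2 ratio of the 39 members was 0.16, beside -0.01 for all genes tested. A change of library scaling moves both medians by the same amount.

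Of the members above 0, the log2 ratio was 0.35 for Slc25a3 (95% interval 0.32 to 0.38), 0.43 for Slc25a12 (0.39 to 0.46), 0.36 for Slc25a11 (0.31 to 0.41), 0.71 for Slc25a20 (0.62 to 0.81) and 0.43 for Slc25a42 (0.31 to 0.55). Slc25a27, with 121 and 95 counts, had 0.72 (0.32 to 1.12). None of these reached 2-fold. The members below 0 were Slc25a5, Slc25a24, Slc25a1 at -0.62 (-1.01 to -0.24), Slc25a10 at -0.37 (-0.71 to -0.04) and Slc25a14 at -0.89 (-1.85 to -0.04). Slc25a14 rested on 16 and 39 counts and had an adjusted p of 0.0851 in the exact binomial test. Since TPM and scaled counts rest on different sums, their order can disagree where a difference is small. Slc25a51, at 30.5 and 32.0 TPM, had a log2 ratio of 0.08 (-0.01 to 0.17).

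**Figure D4:**
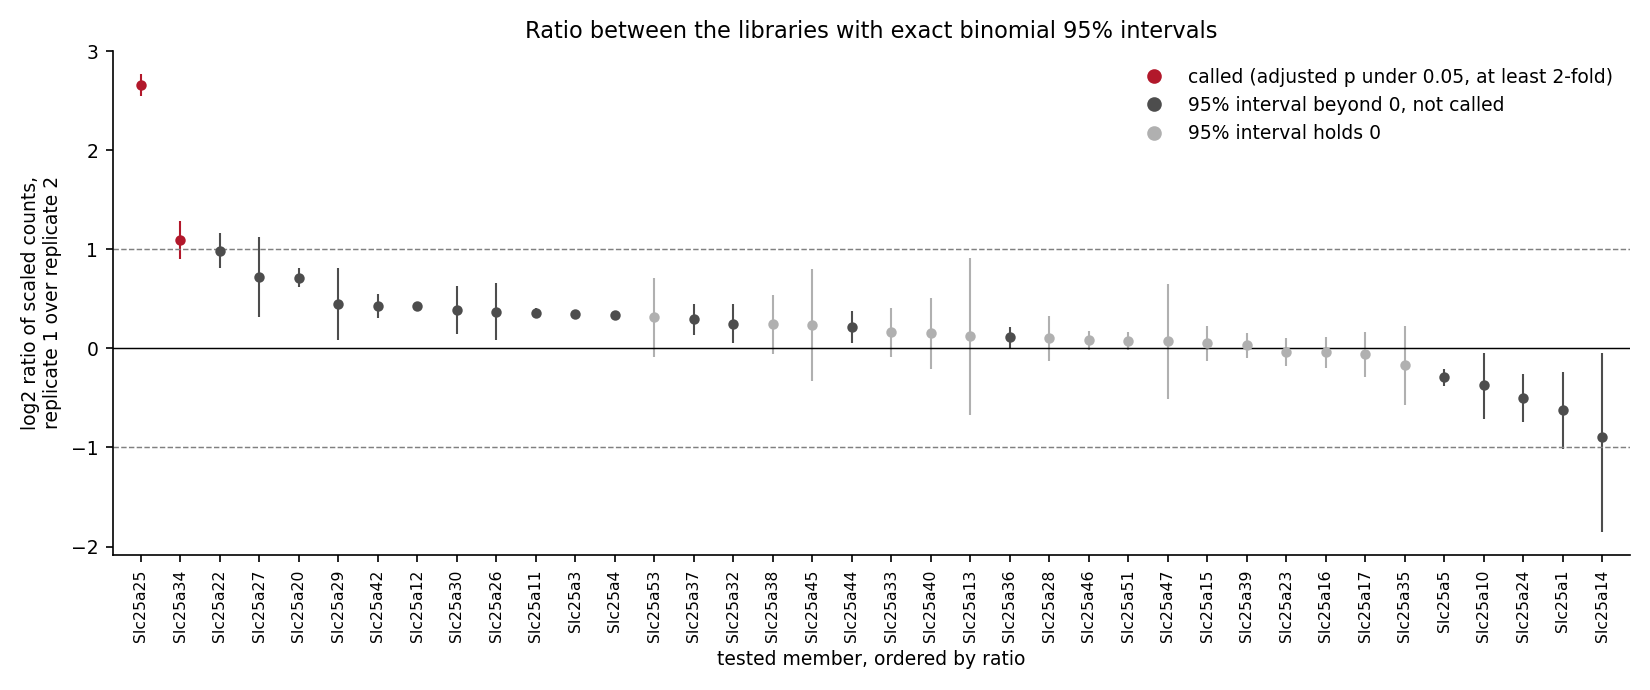
Log2 ratio of TMM-scaled counts, replicate 1 over replicate 2, for 38 tested members, with exact binomial 95% intervals (bars). Red points are called, dark points have an interval beyond 0 and light points an interval that holds 0, and dashed lines mark 2-fold. Slc25a25 stands apart at 2.66, and the 5 members with intervals below 0 are at the right.

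Proteins that act beside the carriers were described from set lists. Of the 5 relatives of the family with other symbols, 4 were detected. Ucp3, the uncoupling protein of muscle, was the 1 called member of these lists, at 60.7 and 28.3 TPM and a log2 ratio of 1.26 (95% interval 1.19 to 1.34). Ucp2 was at 56.6 and 59.1 TPM and Ucp1, of brown fat, had 0 counts in both libraries. Mtch1 and Mtch2, outer membrane relatives of the carriers, were at 64.5 and 77.8 TPM and at 74.2 and 70.4 TPM. Ucp3 and Ucp2 had overlapping intervals in replicate 1, while in replicate 2 Ucp3 was 2.09-fold lower.

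In the other lists 0 genes were called in either direction by the exact binomial test, beside 3.4% of all genes tested. The following counts are of intervals beyond 0. Over all genes tested, 19.2% lay above 0 and 19.1% below with TMM. The shares were 10.1% and 34.7% by total count and 6.64% and 47.7% by spike-ins. All 4 soluble enzymes of the malate-aspartate shuttle lay above 0, also with total-count and spike-in scaling, with Mdh2 at 559 and 503 TPM, Mdh1 at 300 and 224 TPM and Got2 at 200 and 163 TPM. For the enzymes of the carnitine shuttle it was 3 of 4, with the remaining 1 below 0 by spike-ins, among them Crat at 159 and 123 TPM, Cpt1b at 117 and 112 TPM and Cpt2 at 37.3 and 23.6 TPM. Both subunits of the pyruvate carrier lay above 0 under all 3 scalings, Mpc1 at 150 and 130 TPM and Mpc2 at 124 and 94.9 TPM. All 3 outer membrane porins lay above 0 with TMM, 2 by total count, and 2 above with 1 below by spike-ins. Their levels were Vdac1 at 601 and 553 TPM, Vdac3 at 169 and 154 TPM and Vdac2 at 144 and 145 TPM. Of the energy buffering enzymes 2 of 3 tested were above 0, with 2 above and 1 below by total count and 1 above and 1 below by spike-ins. Among them were Ckmt2, the mitochondrial creatine kinase of muscle, at 494 and 294 TPM and Ppif at 21.83 and 19.95 TPM.

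The list of import machinery, made up of Timm and Tomm genes and Agk, is wider than the complex that inserts carriers. It had a median log2 ratio of -0.03, beside -0.01 for all genes. All 16 of its genes were detected, and 4 lay above 0 and 1 below. By total count 2 lay above and 8 below, beside 10.1% and 34.7% of all genes. By spike-ins 0 lay above and 12 below, beside 6.64% and 47.7% of all genes. The list's median by spike-ins was -0.25, beside -0.23 for all genes. Timm17a was highest at 112 and 118 TPM, followed by Timm23 at 75.2 and 78.1 TPM and Timm8b at 70.0 TPM in both libraries. The 6 genes of the calcium uniporter had 0 intervals beyond 0 and a median log2 ratio of -0.03, or 4 below 0 by total count and by spike-ins, with Smdt1 at 64.0 and 71.8 TPM and Mcu at 21.3 and 24.9 TPM.

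Exons of 12 members overlap a gene on the opposite strand and those of 2 a gene on the same strand. The strand setting of the counting is not given in the sources used here, so reads in these overlaps cannot be assigned with certainty. The overlapping partner exceeded 10 TPM for Slc25a11 (Rnf167, 16.8 and 17.0 TPM), Slc25a18 (Atp6v1e1, 64.1 and 61.2 TPM), Slc25a26 (Lrig1, 19.3 and 19.4 TPM) and Slc25a35 (Rangrf, 27.2 and 26.4 TPM). The partner of Slc25a25, Naif1, was at 1.08 and 1.51 TPM.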

How the data were processed

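Each of the 2 libraries came with 3 tables that the authors deposited, namely genes and transcripts quantified from transcriptome alignments, and transcripts quantified from reads without alignment. The accompanying notes name mm10 and GENCODE M21. The sources used here do not give the aligner or the quantifiers. Per the file headers, the tables hold expected counts (estimated counts, which need not be whole), TPM, isoform percent, and, as score columns of the deposited tables, the bounds of a TPM interval of unstated level and the posterior SD of each count. TPM and estimated counts of the direct table were summed per gene. Whether reads of CAST/EiJ alleles were lost against a C57BL/6J reference was not measured. Left out were 26248 rows with a number in place of a gene ID.

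Tests used rounded counts. TMM factors from edgeR 4.0.16 were 0.957 and 1.05 for replicates 1 and 2, and log2 ratios used a prior count of 0.5. edgeR's quasi-likelihood test leaves no residual degrees of freedom for 1 library against 1, so the exact binomial test was used, with Clopper-Pearson 95% intervals. Tested on simulated counts of 15757 genes drawn with counting error only, it found 98% of genes set to 3-fold, 100% of those set to 4-fold and 4% of those set to 1.5-fold, and called 0.0129% of the unchanged ones. The floor for 0 counts was 3 counts per library. DESeq2 1.42.0 gave alternative size factors. Scripts ran in Python 3.11.15 with scipy 1.17.1, Biopython 1.88, matplotlib 3.10.9, numpy 2.4.6 and pandas 2.3.3, and in R 4.3.3.

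The members and lists were chosen with earlier results of these data known. Named were members at 1 TPM in both libraries, members of pairs, called members and those just under 1 TPM, and from each pathway list its 3 highest genes and any called one, apart from a few genes that are not reported here. Marker lists are given by their sums. Promoter sequences are from RefSeq (GRCm38.p6), and exon sequences from GENCODE M21.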

Additional observations from a re-analysis of the deposited data

How the results depend on the processing

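The summed level of the family was 2539 TPM, 3559 TPM in the direct quantification and 5210 TPM rescaled over nuclear protein-coding genes, and 2386 to 2691 TPM with 1 replicate left out. Members at the detection limit numbered 36, and 21 at a limit of 5 TPM, with 36 to 37 when 1 replicate was left out. The mean log2 ratio of Slc25a4 over Slc25a5 was 4.35, and 5.02 for counts not divided by length. That of Slc25a12 over Slc25a13 was 8.61, and 7.79 by posterior mean TPM. Slc25a37 over Slc25a28 was -0.60, and 1.03 for counts not divided by length, which favour the longer Slc25a37. Called members numbered 2 under each alternative for scaling, filter and quantification, and 6 at a fold of 1.5. By total count and by spike-ins the 2 were Slc25a25 and Slc25a14 (log2 ratio -1.02 and -1.11). The members' median log2 ratio moved from 0.16 to 0.0349 by total count and to -0.0577 by spike-ins, while that of all genes moved to -0.14 and -0.23. The log2 ratio of Slc25a36 was 0.11, and -0.11 by spike-ins. Of 309 alternative values of single member ratios, 2 lost a call and 2 gained one. The sign changed in 23, of which 12 were by spike-ins, 8 by total count and 3 in the direct quantification. In 3 of the 23 the interval as reported lay beyond 0, and in 1, Slc25a36 by spike-ins, both intervals did, on opposite sides. Ratios between the libraries have no value with a replicate left out. No paired analysis was possible because there was 1 group of 2 libraries. With 1 library on each side the intervals hold counting error only, and members under 20 summed counts were below what this depth could compare.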
